A study of Rattus norvegicus with 16 samples.

Results

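The neuropeptide genes of primary sensory neurons are described here across sham rats and rats with a bone tumor. They were the 10 genes Calca, Calcb, Tac1, Gal, Npy, Vip, Adcyap1, Sst, Nts and Cck, found by their symbols among the 21021 genes listed for each sample. Each symbol matched 1 row. RNA was sequenced from whole dorsal root ganglia (DRG) at the levels L3 to L5 on the left side of adult female Sprague-Dawley rats, and the ganglia of 1 rat were combined into 1 sample. Walker 256 cells, a rat mammary gland carcinoma line, had been injected into the left tibia (tumor cell implantation, TCI). Ganglia were taken 1, 7 or 14 days later (TCI_D1, TCI_D7 and TCI_D14). Sham rats were given phosphate-buffered saline per the labels, or boiled tumor cells per the methods of the study, and their ganglia were taken on day 14. Days 1 and 7 therefore stood apart from sham in both the tumor and the interval after the injection, which cannot be told apart. Each of the 4 groups held 4 samples. The study left TCI_D1 replicate 2 and TCI_D7 replicate 3 out of its statistics, so the tests below used the other 14 samples, and all 16 are shown.

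Neuropeptides are cut from larger precursors, stored in dense-core vesicles and released from both the spinal and the peripheral endings of sensory neurons, where they act on G protein-coupled receptors. Calcitonin gene-related peptide and substance P mark the peptidergic nociceptors. Galanin, neuropeptide Y and vasoactive intestinal peptide are classically low in intact ganglia and rise after damage to the peripheral axon, while somatostatin belongs to a population of small neurons tied to itch. The deposited values were fragments per kilobase and per sequencing depth (FPKM), which scale for gene length and so allow levels of different genes to be set beside each other.

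Promoter windows are shown for 4 members because these genes carry the patterns described below. Npy had the widest spread between samples, Sst moved most nearly opposite to it, and Calca and Tac1 were the most abundant and among the steadier members. The windows run from 250 bases before to 50 bases after the annotated start in RefSeq on the rat build GRCr8, 5′ to 3′ on the strand of the gene. Windows were found for 8 of the 10 members, and none was found for Calcb and Cck. Capitals mark the cAMP response element in Sst and its core, TGACG or CGTCA on the other strand, in Calca and Tac1; the Npy window has no such core and no capitals.
Npy, chr4:80211861-80212160, plus strand: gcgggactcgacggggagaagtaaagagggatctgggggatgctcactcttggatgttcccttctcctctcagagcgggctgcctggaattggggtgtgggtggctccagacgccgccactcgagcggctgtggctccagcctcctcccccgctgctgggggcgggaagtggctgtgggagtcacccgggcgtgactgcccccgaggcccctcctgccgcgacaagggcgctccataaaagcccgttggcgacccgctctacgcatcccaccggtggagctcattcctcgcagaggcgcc
Sst, chr11:90461296-90461595, plus strand: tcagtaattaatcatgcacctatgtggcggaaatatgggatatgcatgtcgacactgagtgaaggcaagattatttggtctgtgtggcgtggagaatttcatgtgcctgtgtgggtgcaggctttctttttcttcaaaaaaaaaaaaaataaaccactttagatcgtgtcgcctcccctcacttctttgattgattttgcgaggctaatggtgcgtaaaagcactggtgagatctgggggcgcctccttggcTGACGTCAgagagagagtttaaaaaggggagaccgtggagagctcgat
Calca, chr1:178317480-178317779, minus strand: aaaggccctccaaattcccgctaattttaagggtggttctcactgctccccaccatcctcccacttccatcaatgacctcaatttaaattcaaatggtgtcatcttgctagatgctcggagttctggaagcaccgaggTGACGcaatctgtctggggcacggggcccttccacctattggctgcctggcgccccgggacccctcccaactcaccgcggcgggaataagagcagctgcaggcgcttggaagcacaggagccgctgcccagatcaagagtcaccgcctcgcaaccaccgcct
Tac1, chr4:36645333-36645632, plus strand: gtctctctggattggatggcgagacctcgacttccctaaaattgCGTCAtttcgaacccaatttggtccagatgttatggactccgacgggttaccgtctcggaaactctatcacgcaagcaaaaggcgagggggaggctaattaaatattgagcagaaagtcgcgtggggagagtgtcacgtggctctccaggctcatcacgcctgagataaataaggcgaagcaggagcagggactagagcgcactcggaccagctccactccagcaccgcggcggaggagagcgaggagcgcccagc

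The full element, TGACGTCA, which reads the same on both strands and contains the core on each, was in 1 of 8 member windows, that of Sst, and in 1.83% of all 33469 windows. The core TGACG on either strand was in 6 of 8 member windows, those of Vip, Calca, Gal, Tac1, Nts and Sst, and in 21.2% of all windows. The AP-1 motif TGANTCA was in 1 of 8, that of Nts, against 7.33% of all windows, and TATAAA on either strand was in 3 of 8, those of Vip, Gal and Adcyap1, against 14.2%. These are matches of letters only, and no binding was measured.

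In sham ganglia the peptide mRNAs spanned almost the whole range of expression. Calca, which encodes alpha calcitonin gene-related peptide, was the highest at 698 ± 59.8 FPKM (SD, n = 4) and ranked 50 of 21021 genes by its mean over the 14 samples. Tac1, the precursor of substance P and neurokinin A, followed at 231 ± 25.2 FPKM. Calcb, the beta form of the same peptide as Calca, stood at 102 ± 19.2 FPKM and Sst, somatostatin, at 87.1 ± 7.59 FPKM. Calca was above Tac1 and Tac1 above Calcb in every sham sample without overlap, while the ranges of Calcb and Sst overlapped. Adcyap1, which encodes PACAP, was at 30.1 ± 6.15 FPKM and Gal, galanin, at 12.7 ± 4.54 FPKM. Npy, neuropeptide Y, ranged from 1.74 to 30.26 FPKM in sham and overlapped both of them. Nts, neurotensin, at 1.48 ± 0.632 FPKM, Cck, cholecystokinin, at 0.812 ± 0.170 FPKM, and Vip, vasoactive intestinal peptide, at 0.05 to 1.28 FPKM, lay at the bottom and overlapped with their neighbours in this order.

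The sample as a whole carried the markers of a sensory ganglion. The 13 pan-neuronal genes summed to 14884 to 19030 FPKM in the 14 samples. Relative depth, read from the lowest values of 45 genes, lay between 0.917 and 1.12. In the left-out TCI_D7 replicate 3 the neuronal genes summed to 10848 FPKM and 9 skeletal muscle genes to 21549 FPKM. In Sham replicate 4 those muscle genes summed to 529 FPKM, against 9.37 to 21.8 FPKM in the other 13 samples used. The 6 macrophage genes summed to 12.7 to 19.7 FPKM in sham and to 86.6 to 134 FPKM on day 7, and 5 T cell genes to 4.90 to 7.54 FPKM and then to 33.2 to 73.0 FPKM. In whole ganglia, fewer cells of a type and less RNA per cell cannot be told apart.

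**Figure D1:**
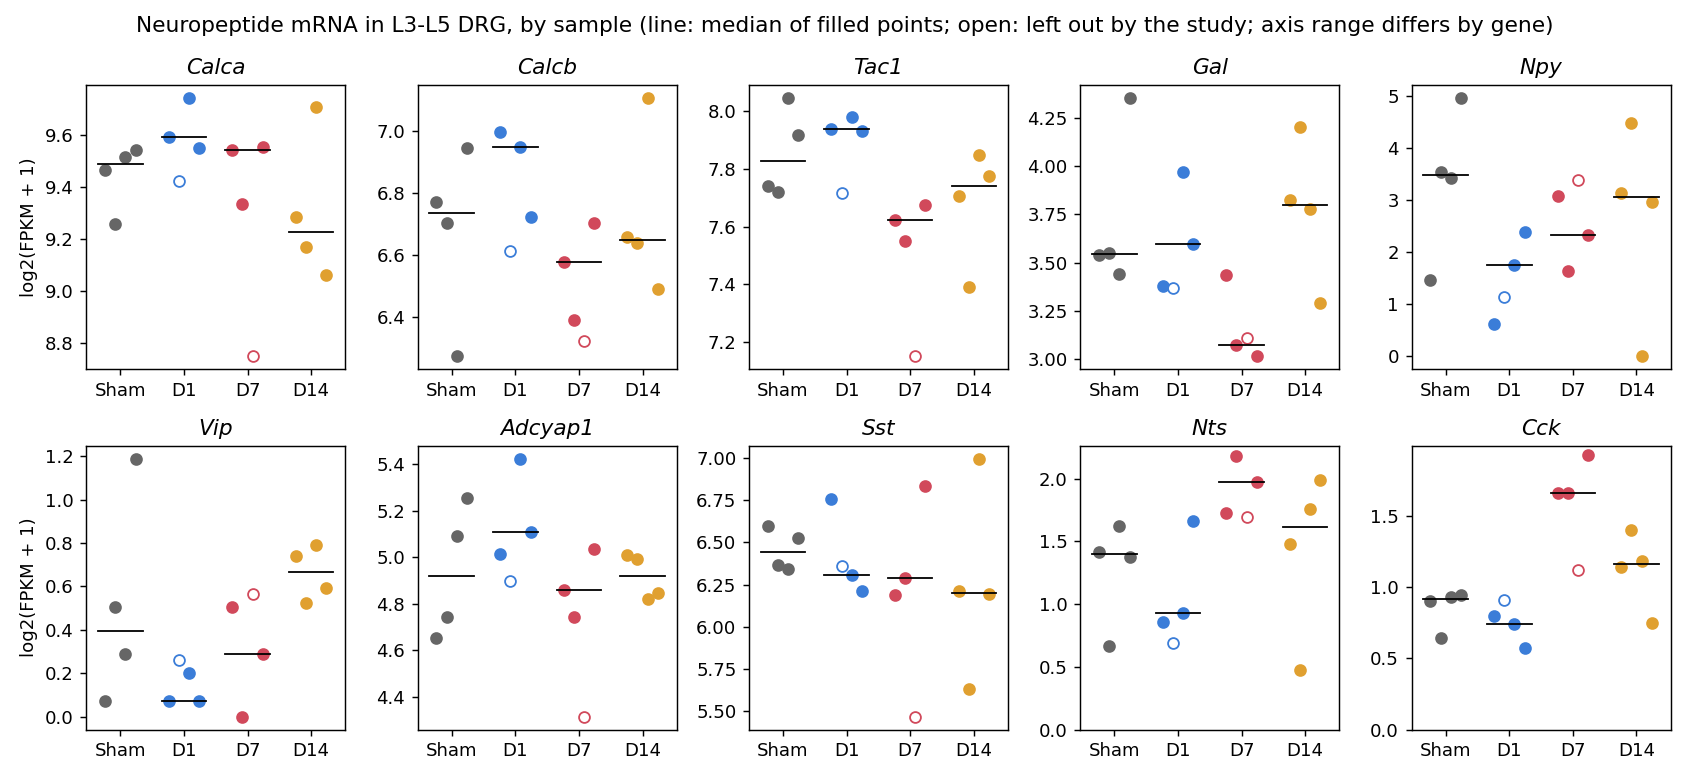
FPKM of the 10 neuropeptide genes in each of 16 samples, plotted as log2(FPKM + 1) on an axis whose range differs by gene, for Sham and TCI days 1, 7 and 14. Filled points are the 14 samples used, open points the 2 left out by the study, and lines the medians of the filled points; Cck on day 7 stood above all sham and day 1 samples, and Npy spread most within groups.

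The question was whether the peptide genes changed as the bone tumor developed. On day 7, Cck rose and was the only member that passed the test. No sham or day 1 sample reached 1 FPKM of Cck, so it entered the test only through the day 7 and day 14 samples, where it was high. Calca and Tac1, the most abundant peptide genes, were not called on any day. Differences were tested with limma on log2(FPKM + 1), where the added 1 understates the changes of low genes, over the 14023 genes that reached 1 FPKM in 3 samples or more. A gene was called at a Benjamini-Hochberg adjusted p of at most 0.05. Of the members 9 were tested, since Vip reached 1 FPKM in 1 sample only. On day 7 against sham 1 of 9 tested members was called, and 17.9% of all tested genes were. On day 1 against sham 0 of 9 were called by limma, with 0% of all genes. None of the 9 reached an unadjusted p under 0.05, as 734 of 14023 tested genes did, a share near the 0.05 of the threshold itself. On day 14 against sham 0 of 9 were called, beside 15.1% of all genes. Between day 14 and day 7 the count was 0 of 9, beside 0.0998%, and between day 7 and day 1 it was 1 of 9, again Cck, beside 10.4%. At the cut-offs of the study, an absolute log2 fold change of at least 1 with an adjusted p of at most 0.001, 0 members were called in each of the 5 comparisons. Here these cut-offs were applied to differences in log2(FPKM + 1). Cck on day 7 against sham met that p (limma adjusted p = 0.000989) but not the fold change. Its difference was 0.89 on that scale, while its mean FPKM was 2.91 times that of sham. Of all genes, limma put 0% past these cut-offs on day 1, 1.83% on day 7 and 0.642% on day 14 against sham. It put 0.0143% past them for day 14 against day 7 and 0.884% for day 7 against day 1. The study called genes by another method and reported genes past its cut-offs on each of the sampled days. The shares given here are therefore not its counts.

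**Figure D2:**
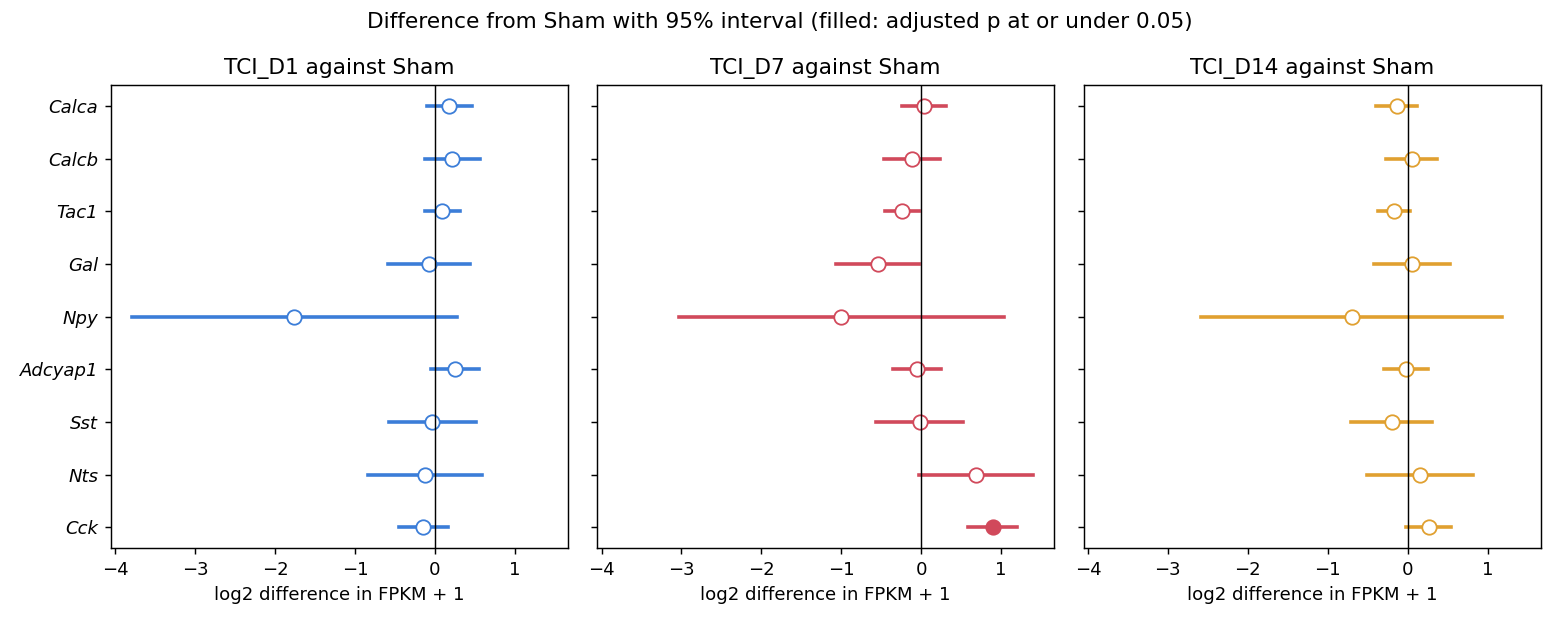
Difference from Sham of the 9 tested neuropeptide genes in log2(FPKM + 1) on days 1, 7 and 14, with the 95% interval from limma over 14 samples; filled points passed an adjusted p of 0.05. Only Cck on day 7 is filled, and the intervals of Npy are the widest.

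Cholecystokinin, encoded by Cck, is a gut and brain peptide that is low in intact ganglia and opposes opioid analgesia in the spinal cord. In sham replicates 1 to 4 Cck was at 0.87, 0.56, 0.90 and 0.92 FPKM, and on day 1 at 0.74, 0.67 and 0.49 FPKM with 0.88 FPKM in the left-out sample. On day 7 it was at 2.15, 2.15 and 2.79 FPKM, with 1.17 FPKM in the left-out sample, and on day 14 at 1.20, 1.64, 1.27 and 0.68 FPKM. All day 7 samples, the left-out one included, stood above all sham and day 1 samples, and 3 of 4 day 14 samples stood above sham. The mean on day 7 was 2.91 times that of sham. The log2 difference on the log2(FPKM + 1) scale was 0.89 (SE 0.141, limma adjusted p = 0.000989), and 0.73 with all 16 samples (adjusted p = 0.00556). Against day 1 it was 1.04 (SE 0.151, limma adjusted p = 0.00101).

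By day 14 Cck was intermediate. The difference from sham was 0.26 (SE 0.131, limma adjusted p = 0.197) and that from day 7 was -0.63 (SE 0.141, limma adjusted p = 0.152), so that neither passed. Without TCI_D14 replicate 4, the lowest of its group, the difference from sham was 0.39 with an adjusted p of 0.0373 in limma, and without TCI_D14 replicate 2 the difference from day 7 was -0.72 with an adjusted p of 0.0239. Cck reached 1 FPKM in 6 of the 14 samples, all of days 7 and 14. Its level stayed under 3 FPKM throughout. The macrophage and T cell genes given above also rose on day 7, and their part in the Cck result was not tested.

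The tachykinin and the calcitonin gene-related peptides showed no called change in the reported comparisons. Calca was at 705, 611, 730 and 744 FPKM in sham, at 770, 855 and 748 FPKM on day 1, at 744, 644 and 751 FPKM on day 7 and at 622, 575, 834 and 533 FPKM on day 14. The 3 day 1 samples lay just above the sham range, the day 7 samples overlapped it, and 2 of the 4 day 14 samples were below it while replicate 3 was above it. The fitted ratios to sham of FPKM + 1 on days 1, 7 and 14 were 1.13 (95% interval 0.936 to 1.37), 1.02 (0.844 to 1.24) and 0.908 (0.760 to 1.08). None passed in limma. On day 14 the call turned on 1 sample. Without TCI_D14 replicate 3 the log2 difference of Calca from sham was -0.27 with a limma adjusted p of 0.0399, against -0.14 and 0.465 with it.

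Calcb ran between 76.30 and 136.85 FPKM over the 14 samples, with both its lowest value, in Sham replicate 3, and its highest, in TCI_D14 replicate 3, in groups that overlapped. Its log2 differences from sham were 0.22 on day 1, -0.12 on day 7 and 0.05 on day 14 (limma adjusted p = 0.974, 0.672 and 0.855). Within a sample Calca exceeded Calcb by 7.03 ± 1.71 times in sham (SD, n = 4), 6.74 ± 0.575 times on day 1 (n = 3), 7.65 ± 0.332 times on day 7 (n = 3) and 6.04 ± 0.167 times on day 14 (n = 4). These ratios overlapped between sham and each day.

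Tac1 was the member nearest to the threshold among those not called. It was at 213, 210, 263 and 240 FPKM in sham, at 244, 251 and 243 FPKM on day 1, at 196, 186 and 203 FPKM on day 7 and at 208, 167, 229 and 218 FPKM on day 14. The 3 day 7 samples lay below all sham and day 1 samples, and the day 14 samples overlapped sham. The log2 difference on day 7 was -0.24 from sham (SE 0.0995, limma adjusted p = 0.119) and -0.33 from day 1 (SE 0.106, limma adjusted p = 0.0666). With all 16 samples the latter was -0.39 with an adjusted p of 0.0462, where the left-out day 7 sample, at 141 FPKM, was also the one with the fewest neuronal transcripts. Of the pan-neuronal genes 5 of 13 were called lower on day 7, beside 3.45% of all genes. These were Rbfox3, Snap25, Nefl, Nefm and Nefh. Over the 13 genes the log2 differences ran from -0.30 to -0.06, with a median of -0.18 against 0.04 over all tested genes. With every sample centred on those genes, the day 7 difference of Tac1 from sham was -0.05 (limma adjusted p = 0.616). That centring raised the median of all tested genes by 0.18, so it shrinks a small fall of any gene, here and below. Whether Tac1 followed neuronal content was not tested.

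The ratio of Calca to Tac1 within a sample ran from 2.78 to 3.31 in sham, from 3.08 to 3.40 on day 1, from 3.46 to 3.80 on day 7 and from 2.45 to 3.64 on day 14. The day 7 ratios lay above those of sham and day 1 without overlap, and this was noticed in the data and not tested. Groups of 3 against 4 samples separate often in these data. On day 7 the groups did not overlap for 4 of 9 tested members, Tac1 and Gal lower and Nts and Cck higher, and for 33.9% of all tested genes. On day 1 they did not overlap for 1 of 9, Calca, beside 11.9% of all genes, and on day 14 for 0 of 9, beside 19.2%.

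Gal was called on none of the days. It was at 10.63, 10.71, 9.86 and 19.44 FPKM in sham and at 9.41, 14.66 and 11.08 FPKM on day 1. On day 7 it was at 9.83, 7.42 and 7.09 FPKM and on day 14 at 13.17, 17.43, 12.69 and 8.80 FPKM. The day 7 samples sat just below the lowest sham sample, and Sham replicate 4 stood well above the other 3. Its log2 differences from sham were -0.07, -0.55 and 0.05 on days 1, 7 and 14 (limma adjusted p = 0.999, 0.139 and 0.901). The 95% interval of the ratio to sham of FPKM + 1 on day 14 ran from 0.745 to 1.45.

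Vip was listed between 0.00 and 1.28 FPKM and was too low to test. It stood at 0.05, 0.42, 0.22 and 1.28 FPKM in sham, at 0.05, 0.15 and 0.05 FPKM on day 1, at 0.42, 0.00 and 0.22 FPKM on day 7 and at 0.67, 0.44, 0.73 and 0.51 FPKM on day 14. Sham replicate 4 was the highest of all, as it was for Gal and Npy. Atf3, a transcription factor switched on by axon damage, was at 3.82 to 12.17 FPKM in sham and at 6.13 to 13.58 FPKM on day 14, with overlap. Of 8 tested genes of axon damage, 2 were called higher on day 7, beside 14.5% of all genes. These were Csf1 and Jun, by 0.71 and 0.28 in log2 (limma adjusted p = 0.00844 and 0.0245). On day 14, 2 were called higher, Csf1 and Gadd45a, by 0.62 and 0.26 (limma adjusted p = 0.0152 and 0.0217), beside 11.9% of all genes, and 1 with all 16 samples.

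Npy had the widest spread of the members between samples of the same group. It was at 1.74, 10.63, 9.77 and 30.26 FPKM in sham and at 0.54, 2.38 and 4.20 FPKM on day 1, with 1.19 FPKM in the left-out sample. On day 7 it was at 7.39, 2.10 and 4.04 FPKM, with 9.52 FPKM in the left-out sample, and on day 14 at 7.81, 21.34, 0.00 and 6.83 FPKM. The sham samples thus covered a range of 17.4 times, and on day 14 the second highest and the lowest of all 14 values occurred in the same group, the lowest listed at 0. The groups overlapped, although 3 of 4 sham samples lay above the whole of day 1.

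The SD of Npy about the group means was 1.399 in log2(FPKM + 1), which ranked 20 of 14023 tested genes and was 12.4 times the median SD of 0.113. In the other 8 tested members it ran from 0.142, in Tac1, to 0.485, in Nts. Among 23 tested peptide genes, the 9 members and 14 others, Crh, which encodes corticotropin-releasing hormone, had nearly the same SD of 1.39, and Nppb, which encodes a natriuretic peptide of itch neurons, was next at 0.531. The rank of Npy was 57 without the sample listed at 0, TCI_D14 replicate 3, and 45 with all 16 samples. This spread left the comparison of groups with little precision. The log2 differences from sham were -1.76 on day 1, -1.002 on day 7 and -0.70 on day 14 (SE 0.941, 0.941 and 0.871, limma adjusted p = 0.941, 0.510 and 0.634). On day 14 the 95% interval of the ratio to sham of FPKM + 1 reached from 0.167 to 2.27.

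**Figure D3:**
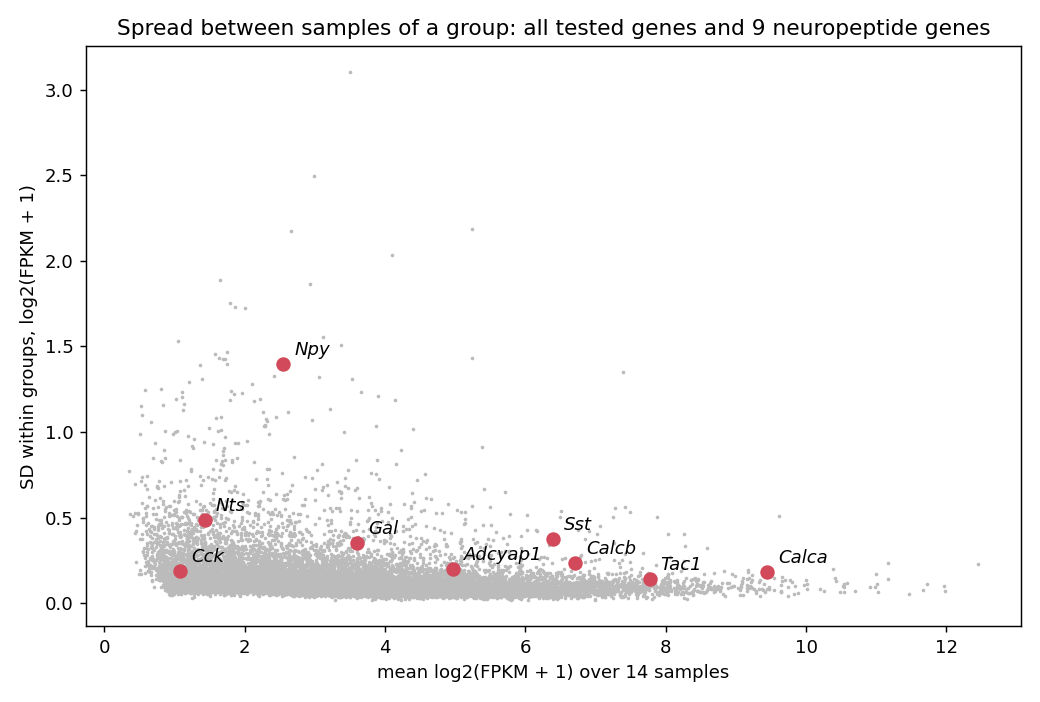
SD of log2(FPKM + 1) about the group means against the mean level over 14 samples, for 14023 tested genes (grey) and 9 neuropeptide genes (red). Npy, at an SD of 1.399, lies far above genes of a like level, while Calca, Tac1, Calcb, Adcyap1 and Cck lie between 0.142 and 0.235.

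How Npy varied within groups was then set against 4 lists of marker genes, each as its mean log2(FPKM + 1) and as deviations from the group means over the 14 samples. Sympathetic neurons make neuropeptide Y, and 9 sympathetic genes were examined for that reason. Among them the markers Dbh and Th were low, while all 9 genes together summed to 28.9 to 55.3 FPKM in the 14 samples. Other genes of the list therefore held most of that sum. Dbh, the enzyme that makes noradrenaline, was at 0.02 to 0.77 FPKM, and Th, tyrosine hydroxylase, which some sensory neurons also carry, at 0.31 to 2.34 FPKM. The relation of Npy with the sympathetic list had a Pearson r of 0.12 (exact permutation within groups, two-sided, p = 0.702, adjusted p over 4 relations 0.702) and a Spearman rho of 0.0418 (p = 0.900). Of the 9 genes in that mean, 4 passed the filter of the limma fit. For Th by itself r with Npy was 0.52 and rho 0.473, given as a description, and no other gene of the list is given singly.

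Npy ran with the axon damage genes, but not past the correction. Against the 9 such genes, which include Atf3, Sprr1a, Sox11 and Gap43, r was 0.75 (exact permutation p = 0.0201, adjusted p = 0.0802) and rho 0.670 (p = 0.0212, adjusted p = 0.0849). Without the 2 samples farthest out on that list, Sham replicate 4 and TCI_D14 replicate 2, r was 0.54 (exact permutation p = 0.0779). These are also the 2 samples with the highest Npy, with Atf3 at 12.17 and 13.58 FPKM. With all 16 samples r was 0.76 with an adjusted p of 0.0280.

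Against the 13 pan-neuronal genes r was -0.69 (exact permutation p = 0.0423, adjusted p = 0.0846) and rho -0.574 (p = 0.0629, adjusted p = 0.126). Without TCI_D14 replicates 2 and 3, r was -0.23 (exact permutation p = 0.502), so the relation rested on those samples. Against the 9 skeletal muscle genes r was 0.45 (exact permutation p = 0.250, adjusted p = 0.334) and rho 0.455 (p = 0.114, adjusted p = 0.152), and without Sham replicates 1 and 4 it was 0.26 (p = 0.579). Muscle genes were high in Sham replicate 4, with Acta1, skeletal muscle actin, at 176.98 FPKM.

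**Figure D4:**
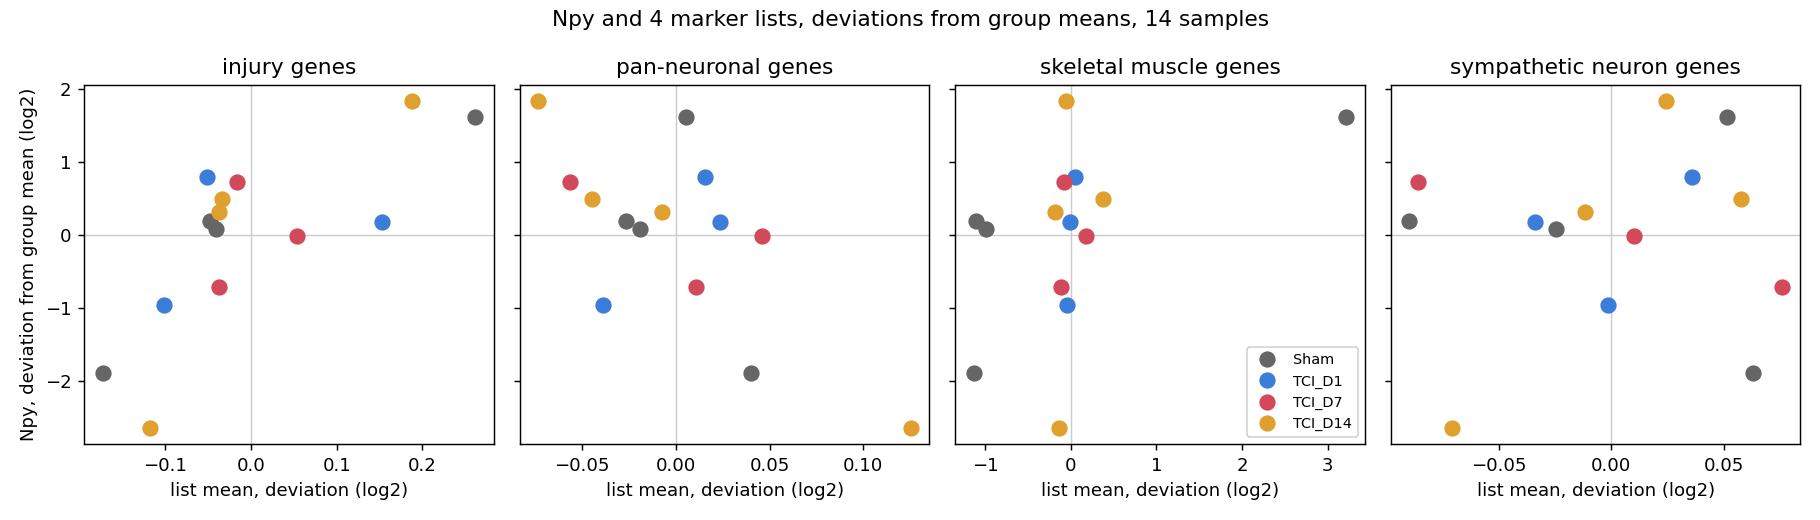
Deviation of Npy from its group mean (vertical, log2) against that of 4 gene list means (horizontal, log2, range differs by panel) in 14 samples coloured by group. Npy and the injury genes had r = 0.75 with an adjusted p of 0.0802; for the sympathetic genes r was 0.12, and in the muscle panel Sham replicate 4 stands alone at the right.

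The genes whose deviations ran closest to those of Npy, out of 13548 tested genes with a mean of at least 1 FPKM, were Arl11, Rgma, Col16a1, Creld2 and Max, with Pearson r of 0.92, 0.91, 0.91, 0.90 and 0.90 over 14 samples. Being the highest of so many they are given as a description. For Gal the closest were Cherp, Mkl1, LOC102550986, Pom121 and Thap11, with r of 0.90, 0.85, 0.84, 0.84 and 0.84. None of these was a neuropeptide gene. Among the members themselves, the deviations of Npy and Sst had r = -0.75. Those of Npy and Adcyap1 had r = 0.59 and those of Npy and Gal r = 0.51. These are also a description over samples that share the same libraries.

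Sst showed that opposition in its values. It was at 95.77, 81.40, 80.08 and 91.08 FPKM in sham and at 107.27, 78.09 and 73.09 FPKM on day 1. On day 7 it was at 72.02, 77.09 and 113.24 FPKM and on day 14 at 73.13, 48.62, 126.64 and 72.13 FPKM. On day 14, replicate 2 had the least Sst and the most Npy, and replicate 3 the most Sst and no listed Npy. Replicate 3 also had the highest Calca, Calcb and Tac1 of its group. In sham the opposition was weaker: replicate 1 had the least Npy and the most Sst, but replicate 4, with the most Npy, had the second highest Sst. The log2 differences of Sst from sham were -0.03 on day 1, -0.02 on day 7 and -0.20 on day 14 (limma adjusted p = 0.999, 0.970 and 0.615).

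Adcyap1, the PACAP gene, lay between 24.13 and 41.95 FPKM in the 14 samples. Its log2 differences from sham were 0.25 on day 1, -0.06 on day 7 and -0.02 on day 14 (SE 0.139, 0.139 and 0.129, limma adjusted p = 0.950, 0.826 and 0.946). Its highest sample was TCI_D1 replicate 3. Nts, the neurotensin gene, was at 1.66, 0.59, 2.08 and 1.60 FPKM in sham, at 0.81, 0.90 and 2.16 FPKM on day 1, at 2.31, 3.52 and 2.92 FPKM on day 7 and at 1.78, 0.39, 2.38 and 2.97 FPKM on day 14. The day 7 samples lay above all sham and day 1 samples. The log2 difference on day 7 was 0.69 from sham (SE 0.330, limma adjusted p = 0.177) and 0.81 from day 1 (SE 0.353, limma adjusted p = 0.181), and neither passed.

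The receptor list held 16 tested genes of 27. On day 7, 3 of 16 were called higher, beside 14.5% of all genes, and 2 of 16 lower, beside 3.45%, with a median log2 difference of 0.14 against 0.04 over all genes. Ramp1, the subunit that turns the calcitonin receptor-like receptor into the receptor for calcitonin gene-related peptide, was at 4.29 to 8.71 FPKM in sham and 13.70 to 20.88 FPKM on day 7. Its log2 difference was 1.28 (SE 0.267, limma adjusted p = 0.00547). Ramp2, which directs the same receptor toward adrenomedullin, rose by 0.50 on the log2 scale (limma adjusted p = 0.000813), and Crcp, a component of the CGRP receptor, by 0.32 (limma adjusted p = 0.0114). Crcp lost the call after quantile normalization (adjusted p = 0.0594) and without TCI_D7 replicate 4 (0.0521). Calcrl itself, the receptor chain that both Ramp proteins join, was at 2.71 to 3.30 FPKM in sham and 3.81 to 5.23 FPKM on day 7 and was not called.

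Npy1r, a receptor of neuropeptide Y that sensory neurons carry, was at 15.91 to 19.66 FPKM in sham and 12.63 to 13.90 FPKM on day 7, without overlap. It fell by 0.40 on the log2 scale on day 7 and by 0.43 on day 14 (limma adjusted p = 0.0105 and 0.00612). Cckar, a receptor of cholecystokinin, was at 2.28 to 3.79 FPKM in sham and 1.67 to 2.13 FPKM on day 7, where Cck itself was highest, and fell by 0.56 (limma adjusted p = 0.00956). Centred on the pan-neuronal genes, the day 7 changes of Npy1r and Cckar were -0.21 and -0.38 and no longer passed (limma adjusted p = 0.133 and 0.0501). Npy1r also missed the threshold on day 7 without TCI_D7 replicate 2 (adjusted p = 0.0504) and on day 14 with all 16 samples (adjusted p = 0.129). On day 14, 3 of 16 receptors were called higher, Ramp1, Crcp and Ramp2, beside 11.9%, and 1 of 16 lower, Npy1r, beside 3.21%. Crcp was higher by 0.38 and Ramp2 by 0.24 in log2 (limma adjusted p = 0.00449 and 0.0356). With all 16 samples 1 receptor was called higher and 0 lower on day 14, beside 9.86% of all genes in either direction. Ramp1 stood at 0.79 on that day with a limma adjusted p of 0.0482, and it kept the call in 6 of 23 alternatives, over which the adjusted p ran from 0.00333 to 0.135.

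Of 13 genes of precursor processing and vesicle release, 0 were called higher on day 7, beside 14.5% of all genes, and 2 lower, beside 3.45%. These were Cadps, a priming factor of dense-core vesicles, and Pcsk2, a prohormone convertase. Cadps was at 68.29 to 71.28 FPKM in sham and 51.59 to 57.94 FPKM on day 7 and fell by 0.33 in log2 (limma adjusted p = 0.00206), and by 0.31 on day 14 (limma adjusted p = 0.00298). Centred on the pan-neuronal genes, its differences were -0.15 and -0.16 and were not called (limma adjusted p = 0.172 and 0.131). With all 16 samples the day 14 difference was not called either (adjusted p = 0.0848). Pcsk2 fell by 0.14 (limma adjusted p = 0.0399) and kept that call in 11 of 23 alternatives (adjusted p from 0.00937 to 0.547). Its difference was 0.04 with that centring, the opposite sign.

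Of 8 peptidases that can break down neuropeptides, 2 rose on day 7, beside 14.5% of all genes, and both passed the cut-offs of the study, beside 1.83%. Dpp4, which trims the amino end of neuropeptide Y, was at 0.49 to 0.76 FPKM in sham and 2.10 to 3.66 FPKM on day 7, a log2 difference of 1.31 (SE 0.197, limma adjusted p = 0.000706). No sham sample reached 1 FPKM of Dpp4, so it entered the test through the tumor groups, where it was high. Anpep, aminopeptidase N, rose by 1.15 (limma adjusted p = 0.000555). Both are also surface proteins of immune cells and fibroblasts. The 4 fibroblast genes summed to 388 to 557 FPKM in sham and 913 to 1141 FPKM on day 7. There 2 of 4 were called higher, beside 14.5% of all genes, Dcn by 1.73 and Lum by 1.01 in log2 (limma adjusted p = 0.000960 and 0.0377). The part of the fibroblast, macrophage and T cell genes in these results was not tested. On day 14, 2 of the 8 peptidases were called higher, beside 11.9% of all genes, and 1 lower, beside 3.21%. Dpp4 and Anpep were higher by 0.67 and 0.51, and Ide, the insulin-degrading enzyme, was lower by 0.27 (limma adjusted p = 0.0267, 0.0404 and 0.00744). The day 14 calls were kept in 15 of 22 alternatives for Dpp4, with adjusted p from 0.00677 to 0.0687, and in 11 of 22 for Anpep, from 0.0100 to 0.111. Ide was not called with all 16 samples (adjusted p = 0.292) or with neuronal centring (0.307).

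Of the other 30 peptide and neurotrophin genes, 14 were tested, and 1 was called higher on day 7, beside 14.5% of all genes, and 1 lower, beside 3.45%. Adm, adrenomedullin, was at 0.93 to 1.37 FPKM in sham and 2.94 to 3.35 FPKM on day 7, a log2 difference of 0.90 (limma adjusted p = 0.00213). Bdnf, a neurotrophin that nociceptors store beside their peptides, was at 5.47 to 7.95 FPKM in sham, 3.59 to 4.65 FPKM on day 7 and 4.36 to 4.91 FPKM on day 14, without overlap on either day. It fell by 0.55 and by 0.46 in log2 (limma adjusted p = 0.00309 and 0.00774) and was called on both days in the 23 alternatives read at an adjusted p of 0.05, but not at the cut-offs of the study. On day 1 against sham 0 genes of these 4 lists were called by limma. On day 7 against day 1, Ramp2, Dpp4, Anpep and Adm were called higher, beside 9.02% of all genes, and Bdnf lower, beside 1.42%. On day 14 against day 7, 0 were called, beside 0.0998% of all genes.

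**Figure D5:**
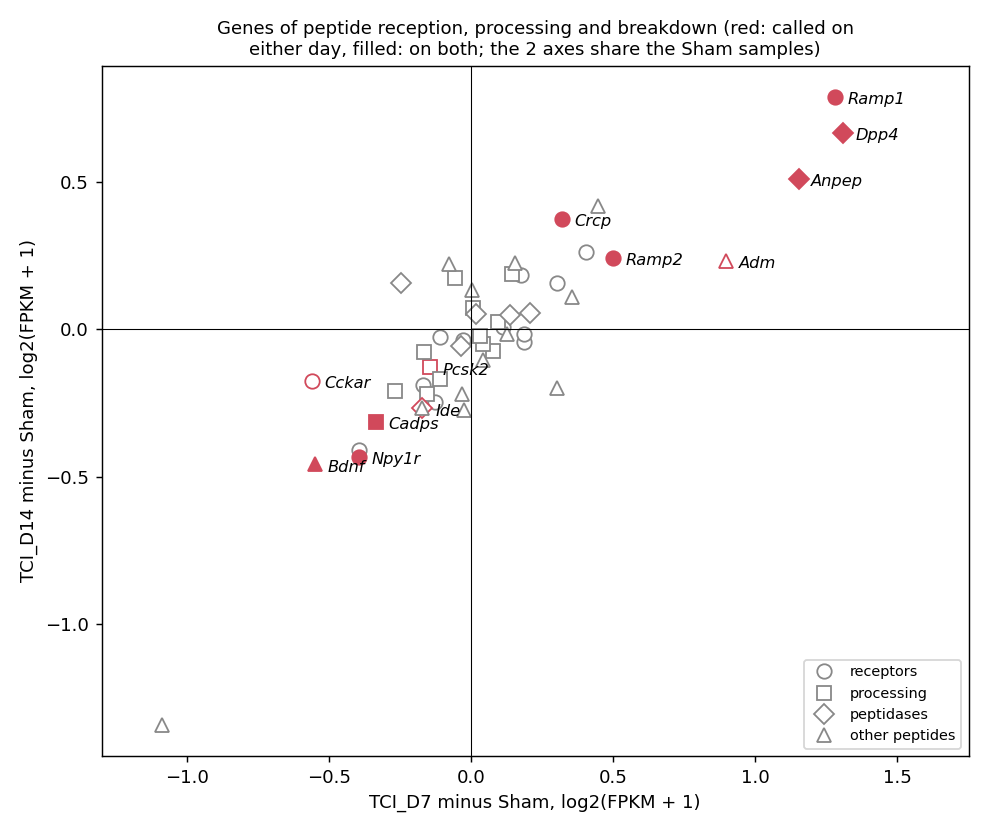
Log2(FPKM + 1) differences from Sham on day 7 (horizontal) and day 14 (vertical) for the tested receptor (circles), processing (squares), peptidase (diamonds) and other peptide (triangles) genes. Red marks genes called on either day and filled red those called on both; Ramp1, Dpp4 and Anpep lie farthest to the upper right, and both axes share the Sham samples.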

How the data were processed

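RNA of 16 rat DRG samples, 4 per group, was analysed from 1 table per sample. Per the methods of the study, the authors filtered the reads, mapped them with HISAT and Bowtie2 and estimated expression with RSEM; the labels name CASAVA 1.4 and Bowtie2. The deposited values are FPKM with 2 decimals. The genome build and annotation are not given in the sources used here, and the tables hold no read totals, so no counting error was computed. Sample groups came from the labels.

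Log2(FPKM + 1) was fitted for 14023 genes (at least 1 FPKM in at least 3 of 14 samples) with all 4 groups in 1 model in limma 3.58.1 (R 4.3.3, eBayes with trend, Benjamini-Hochberg adjustment). The 2 samples that the study left out were used as an alternative. P-values measure the spread between samples of 1 animal each. Relations of Npy with 4 lists used exact permutations within groups (20736), and figures were drawn with matplotlib 3.10.9. Scripts were tested on simulated data. At most 2.78% of values were equal between any 2 samples.

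The members and gene lists were chosen with earlier results of these data known. Named were all members, up to 4 called genes with the largest change per pathway list and comparison, Th, Dbh, Atf3 and the 5 genes most like Npy and Gal; other genes were named after their values were seen. Some marker genes are not reported here. Alternatives were all 16 samples, only the 2 groups compared, a pseudocount of 0.1, no trend, no filter or one on a mean of 5 FPKM, quantile normalization, centring on pan-neuronal genes, a replicate block, the cut-offs of the study, and each sample left out in turn.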

Additional observations from a re-analysis of the deposited data

Results flagged for a closer look

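The first 2 values below stood far from the rest of their group, out of 40 groups of 4 samples examined, and chance marks about 1 group in 20. Gal was at 19.44 FPKM in Sham replicate 4, and the gap to the next sample was 0.911 of the range of the group. Cck was at 0.56 FPKM in Sham replicate 2, lowest of 4, with a gap of 0.861 of the range. Cck also differed between tumor days, with a log2 difference of 1.04 between day 7 and day 1 (limma adjusted p = 0.00101). As said above, it entered the test only through the day 7 and day 14 samples, where it was high.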

How the results depend on the processing

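The count of members called on day 7 against sham was 1 in the reported fit, beside 17.9% of all tested genes. It was 0 at a mean of at least 5 FPKM, where Cck was filtered out, beside 16.5%. At the cut-offs of the study it was 0, beside 1.83%. It was 2 after quantile normalization (with Tac1), beside 26.1%, and 2 after centring on pan-neuronal genes (with Nts), beside 48.9%. With each sample left out it was 1 to 2, 2 being without TCI_D14 replicate 2 (with Tac1), beside 20.1%. On day 14 against sham the count was 0 in the reported fit, beside 15.1% of all genes. It became 1 after quantile normalization (Tac1), beside 18.9%, and 1 after neuronal centring (Cck), beside 39.9%. With samples left out it ran from 0 to 1, being 1 without TCI_D14 replicate 3 (Calca, beside 17.8%) or replicate 4 (Cck, beside 15.8%). Between day 14 and day 7 it ran from 0 to 1, being 1 without TCI_D14 replicate 2 (Cck, beside 1.36%). Between day 7 and day 1, 1 in the reported fit, it was 2 with all 16 samples, 2 with only the 2 groups in the fit and 2 after quantile normalization, with Tac1 in each, 0 at a mean of at least 5 FPKM, 0 at the cut-offs of the study, and 1 to 2 with samples left out (2 without TCI_D14 replicate 2 or replicate 3). On day 1 it was 0 in all alternatives. The causes were not tested.

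Of 1025 alternative values of single members, all read at an adjusted p of 0.05, 972 kept their sign and 13 passed the threshold where the reported value had not. The call of Cck was not lost or reversed among them, but these values leave out the mean of 5 FPKM, where Cck was not tested, and the cut-offs of the study, where it was not called. The relation of Npy with injury genes ran from 0.67 to 0.81 with samples left out and was 0.76 (adjusted p = 0.0280) with all 16. The relation with pan-neuronal genes ran from -0.82 to -0.33, with the muscle genes from 0.29 to 0.59 and with the sympathetic genes from -0.24 to 0.37. The SD of Npy ran from 1.07, without TCI_D14 replicate 3, to 1.48.

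Scaling set the balance of all calls. On day 7 the share of calls that were higher was 80.7% as reported, 36.6% after quantile normalization, which moved the median of all genes by -0.11, and 99.6% after neuronal centring, which moved it by 0.18. On day 14 it was 78.8%, 41.6% and 99.0%, and between day 7 and day 1 86.4%, 48.4% and 98.9%. With all 16 samples it was 89.8% on day 14.

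Replicate numbers are shared between groups but not animals. With the replicate block the member counts were 0, 1, 0, 0 and 1 in the order of the 5 comparisons, and the calls over all genes between day 7 and day 1 fell from 1464 to 976 and between day 14 and day 7 from 14 to 4. Deviations of same-numbered samples had a median correlation of 0.00257 over 18 pairs, against -0.00468 over 55 other pairs. Of 14 samples 6 correlated best with their own number, and no chance value was computed for that count. The samples were not treated as paired because each came from a different animal. The sample titles do not say whether same-numbered samples were processed together.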

Other observations

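Crh, which encodes corticotropin-releasing hormone, was nearly as uneven as Npy but in other samples. It was at 4.42, 3.83, 0.14 and 11.96 FPKM in sham, at 3.99, 0.10 and 2.20 FPKM on day 1, at 0.06, 0.24 and 5.93 FPKM on day 7 and at 6.63, 0.06, 0.10 and 0.05 FPKM on day 14. Both genes were highest in Sham replicate 4, yet TCI_D14 replicate 2, second highest in Npy at 21.34 FPKM, held 0.06 FPKM of Crh. Over the 14 samples the deviations of Npy and Crh from their group means had r = 0.10, given as a description.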
